A study of Dugesia japonica with 12 samples.

Results

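Ferritin is a hollow protein shell in which cells store iron, and the transcript described here, TRINITY_DN35717_c1_g2, is annotated as a ferritin heavy chain in the deposited expression table of the planarian Dugesia japonica. It is given by its identifier and was chosen by its TPM over the 4 groups, together with every other gene whose annotation or Swiss-Prot name contains the word ferritin and whose mean reached 5 TPM (an abundance scaled to the total of each library and already divided by transcript length). This gave 6 ferritin genes, out of 11 rows that name ferritin and 30535 genes in all. The table came from polyadenylated RNA of whole worms of a clonal laboratory strain, in 12 libraries. Worms were either left untreated (control) or kept in 64 mg per L of the herbicide glyphosate and sampled after 1, 3 or 5 days, with 3 libraries in each of the 4 groups; the day on which control worms were taken is not given in the sources used here. All groups share that strain, and no other agent is named. Whether libraries within a group stem from different cultures is not stated, so every p-value refers to the variation among these libraries, and that variation may be technical.

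In animals that have been studied, a ferritin shell is built of many similar subunits. The heavy chain carries the ferroxidase site, which oxidises ferrous iron so that it can be laid down inside the shell, and the light chain, known from vertebrates, helps the iron mineral to form. Soma ferritin is the form first described from the body tissues of a pond snail. In mammals the amount of ferritin made is set mainly at translation, by iron regulatory proteins that bind the messenger RNA, so that a transcript level need not follow the protein. Glyphosate blocks an enzyme of aromatic amino acid synthesis in plants that animals do not have.

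The best protein hit of TRINITY_DN35717_c1_g2 was a partial ferritin heavy chain polypeptide 1 of the lancelet Branchiostoma lanceolatum, and its Swiss-Prot hit was the soma ferritin of the snail Lymnaea stagnalis. Its row is listed at 894 bases and names 9 assembled transcripts. The heavy chain transcript, as written here, stands for that whole row. All 6 ferritin genes carried a Pfam ferritin domain in the deposited table, and 5 of the 6 were given the KEGG name ferritin heavy chain. None of the 11 ferritin rows had its best hit in a flatworm. Of these, 3, namely TRINITY_DN35717_c1_g1, g2 and g3, share the identifier DN35717_c1, which the Trinity assembler gives to contigs built from reads that share sequence, and the assignment of reads among these 3 is uncertain, as are their separate levels. Identifiers are written below without their TRINITY prefix. No genome position or sequence of these genes was used here.

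The heavy chain transcript DN35717_c1_g2 was most abundant in control worms and lower at every exposure time, with its lowest means at day 3 and day 5. It had 99.7, 93.0 and 79.4 TPM in the 3 control libraries, 48.0, 75.1 and 60.6 TPM at day 1, 46.7, 39.6 and 29.8 TPM at day 3, and 36.3, 47.5 and 36.4 TPM at day 5. The lowest control library lay above the highest exposed library, and the day 3 and day 5 libraries lay below all 3 day 1 libraries, by a narrow margin at the edge; over all tested genes, 8.18% lay below day 1 without overlap at day 3 and 11.1% at day 5. The mean was 90.7 ± 10.3 TPM in control, 61.3 ± 13.6 TPM at day 1, 38.7 ± 8.50 TPM at day 3 and 40.1 ± 6.41 TPM at day 5 (SD, n = 3 each). The exposed means were 67.6% of the control mean at day 1, 42.7% at day 3 and 44.2% at day 5. On the log2(TPM + 1) scale, used throughout for differences, these were differences of -0.57, -1.22 and -1.16. Day 5 and day 3 libraries overlapped, and their difference was 0.06.

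These values are given without a test, since the gene was chosen with them in view. Over the 27329 genes tested, libraries lay below control without overlap in 7.71% of genes at day 1, 10.5% at day 3 and 15.6% at day 5. The RNA is from whole worms, so fewer cells of a ferritin-rich type and less ferritin RNA per cell cannot be told apart. The 3 comparisons with control share the same 3 control libraries.

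**Figure D1:**
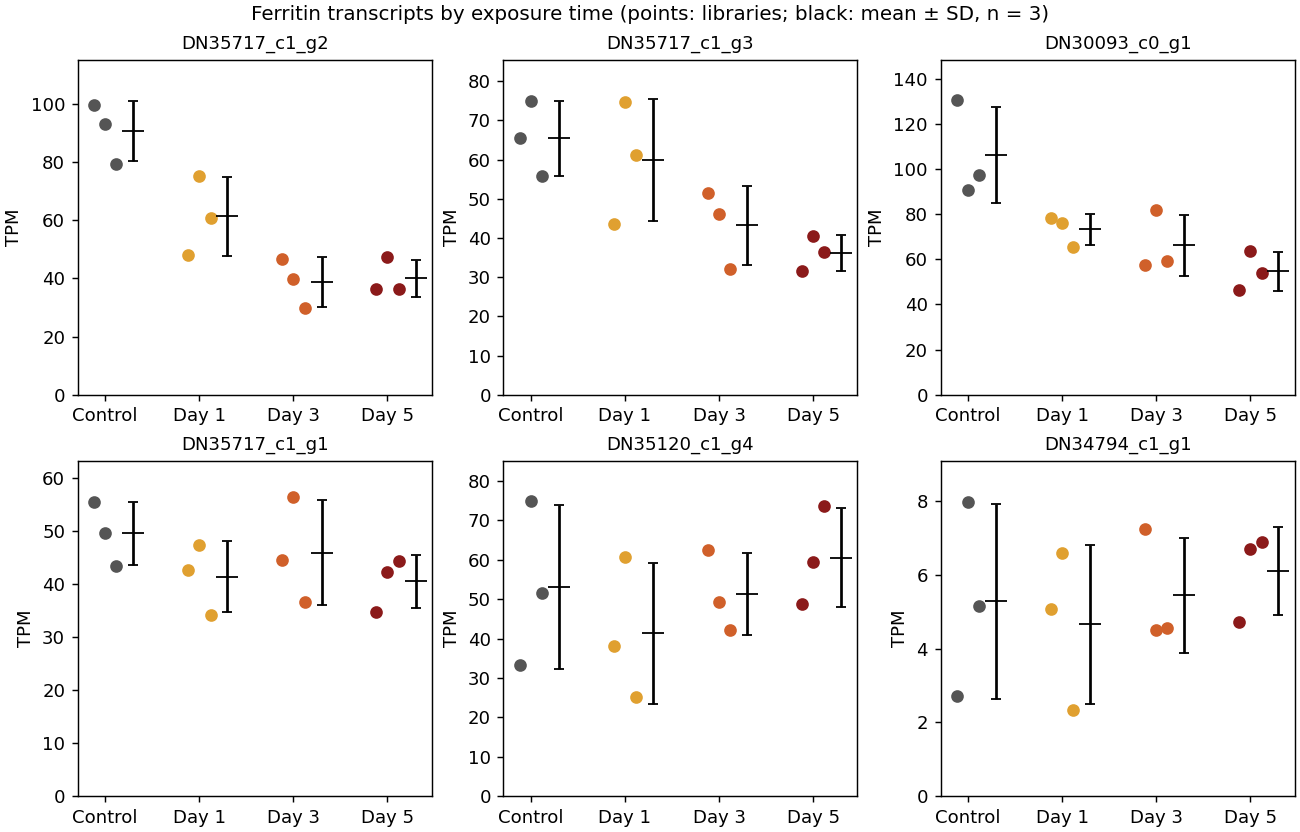
Abundance (TPM, linear axes from 0) of the 6 ferritin genes in control worms and after 1, 3 and 5 days in glyphosate; points are the 3 libraries of a group, and black marks are the mean ± SD (n = 3). Control libraries of DN35717_c1_g2 and DN30093_c0_g1 lie above all exposed libraries, while DN35120_c1_g4 and DN34794_c1_g1 overlap control at every time.

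The 2 neighbours of the heavy chain transcript in the same assembly cluster differed from each other in their course. DN35717_c1_g3, listed at 670 bases and with a soma ferritin-like hit in the sea hare Aplysia californica, had 65.6, 75.0 and 55.8 TPM in control, 43.7, 74.8 and 61.1 TPM at day 1, 51.4, 46.1 and 32.1 TPM at day 3, and 31.5, 40.6 and 36.4 TPM at day 5. Day 1 overlapped control, whereas day 3 and day 5 lay below it without overlap. Its differences from control were -0.15 at day 1, -0.61 at day 3 and -0.84 ± 0.23 (SE) at day 5, with limma Benjamini-Hochberg adjusted p of 0.888, 0.226 and 0.0639. The 95% interval at day 5 ran from -1.32 to -0.35, and the adjusted p was 0.0377 under a stricter filter on low values, of 5 TPM in 3 or more libraries.

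DN35717_c1_g1, listed at 597 bases and with a soma ferritin hit in the snail Biomphalaria glabrata, overlapped control at all 3 times. It had 55.5, 49.8 and 43.5 TPM in control, 42.6, 47.5 and 34.3 TPM at day 1, 44.7, 56.4 and 36.7 TPM at day 3, and 34.8, 42.4 and 44.5 TPM at day 5. The highest of its 12 values was a day 3 library and the lowest a day 1 library. Adjusted p from limma was 0.748, 0.853 and 0.541 at the 3 times, and the day 5 difference of -0.28 had a 95% interval from -0.72 to 0.15.

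The make-up of the cluster can be given as shares, which do not depend on how the libraries are scaled. DN35717_c1_g2 held 35.8%, 38.1% and 38.9% of the summed TPM of the 3 genes at day 1, 32.7%, 27.9% and 30.2% at day 3 and 35.4%, 36.4% and 31.0% at day 5, against 45.2%, 42.7% and 44.4% in control. No exposed library reached the lowest control share. The mean share of DN35717_c1_g1 was 25.9 ± 5.15% at day 1, 36.1 ± 4.32% at day 3 and 34.8 ± 2.81% at day 5, against 24.1 ± 1.16% in control (SD, n = 3 each). The ratio of DN35717_c1_g2 to DN35717_c1_g1 within a library was 1.80, 1.87 and 1.82 in control, 1.13, 1.58 and 1.77 at day 1, 1.05, 0.702 and 0.812 at day 3, and 1.04, 1.12 and 0.818 at day 5. The control ratios were nearly equal to each other, and no exposed ratio reached them. These shares and ratios rest on the values that chose the gene, and they get no test.

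**Figure D2:**
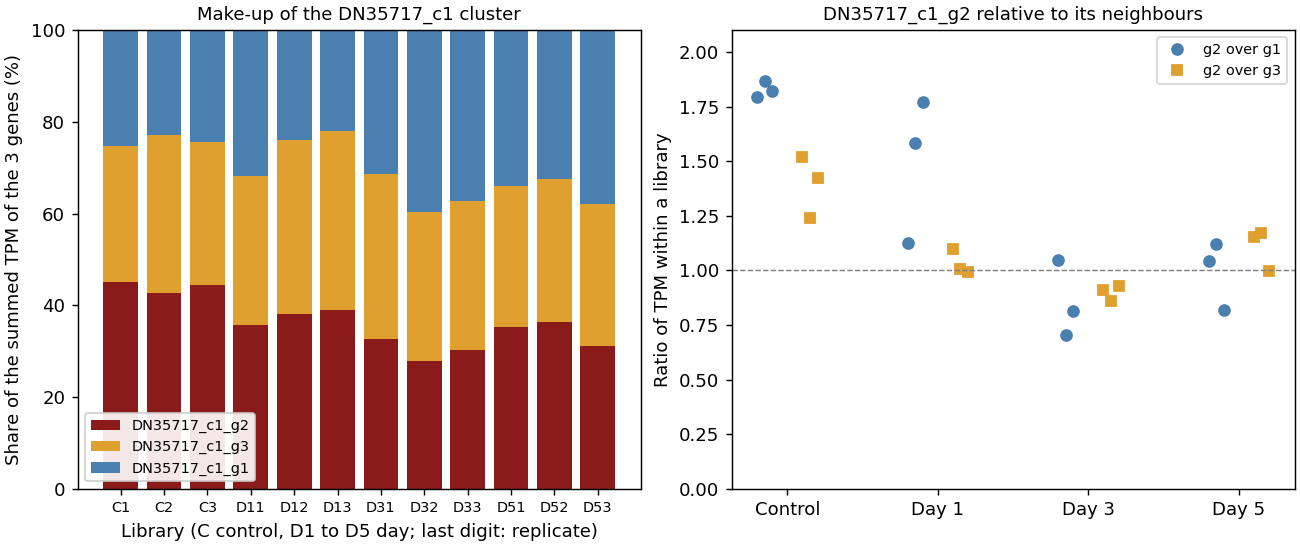
Left, share (%) of the summed TPM of the 3 DN35717_c1 genes held by each, in each of the 12 libraries; right, ratio of the TPM of DN35717_c1_g2 to that of g1 (circles) and of g3 (squares) within each library, with the dashed line at 1. The control ratios to g1 are 1.80 to 1.87, and those at day 3 are 0.702 to 1.05.

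A heavy subunit gene of another assembly cluster fell at day 5. DN30093_c0_g1, listed at 775 bases, has a tick ferritin (Ornithodoros parkeri) as its best hit and the heavy subunit of the Antarctic fish Trematomus bernacchii as its Swiss-Prot hit. It was the most abundant ferritin gene, with 131, 90.7 and 97.3 TPM in control, 78.4, 76.0 and 65.5 TPM at day 1, 57.4, 81.9 and 59.2 TPM at day 3, and 46.3, 63.5 and 54.0 TPM at day 5. Every exposed library lay below the lowest control library. Its mean was 54.6 ± 8.62 TPM at day 5 against 106 ± 21.4 TPM in control (SD, n = 3 each), which is 51.4% of control.

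The day 5 difference of DN30093_c0_g1 was -0.94 ± 0.20 (SE; 95% interval -1.38 to -0.51; limma adjusted p = 0.0217). It was the only 1 of the 5 other ferritin genes to pass the threshold of 0.05 in that comparison, where 2.23% of all tested genes fell; at day 1 (0.0476% of tested genes fell) and day 3 (1.19%) none of the 5 passed. Its day 1 and day 3 differences were -0.51 and -0.68, with adjusted p of 0.490 and 0.119. The day 5 call did not hold without control replicate 1 (adjusted p = 0.110), without day 5 replicate 1 (0.112) or without day 5 replicate 3 (0.0785), nor after rescaling to the RNA outside the 2 most abundant transcripts (0.0501). Over 23 alternatives it held in 17, with differences from -1.05 to -0.75.

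The remaining 2 ferritin genes overlapped control at every time. DN35120_c1_g4, listed at 757 bases, has a soma ferritin-like hit in the lancelet Branchiostoma belcheri and the lower subunit of bullfrog ferritin in Swiss-Prot. Its libraries had 33.2, 74.8 and 51.5 TPM in control, 38.2, 60.6 and 25.1 TPM at day 1, 62.6, 49.2 and 42.3 TPM at day 3, and 48.7, 59.4 and 73.7 TPM at day 5. The control libraries alone covered nearly the whole range, and each exposed group overlapped them. The day 5 difference was 0.24, with a 95% interval from -0.43 to 0.91 (limma adjusted p = 0.777), which leaves room for a fall or a rise of moderate size.

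DN34794_c1_g1, listed at 903 bases with a ferritin of the mud crab Scylla paramamosain as its hit, was about an order of magnitude less abundant and just passed the minimum, with a mean of 5.38 TPM over the 12 libraries. Its libraries had 2.71, 7.99 and 5.15 TPM in control, 5.08, 6.59 and 2.33 TPM at day 1, 7.25, 4.52 and 4.57 TPM at day 3, and 4.73, 6.70 and 6.90 TPM at day 5. All 3 exposed groups overlapped control. Limma adjusted p was 0.939, 0.941 and 0.784 at the 3 times.

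**Figure D3:**
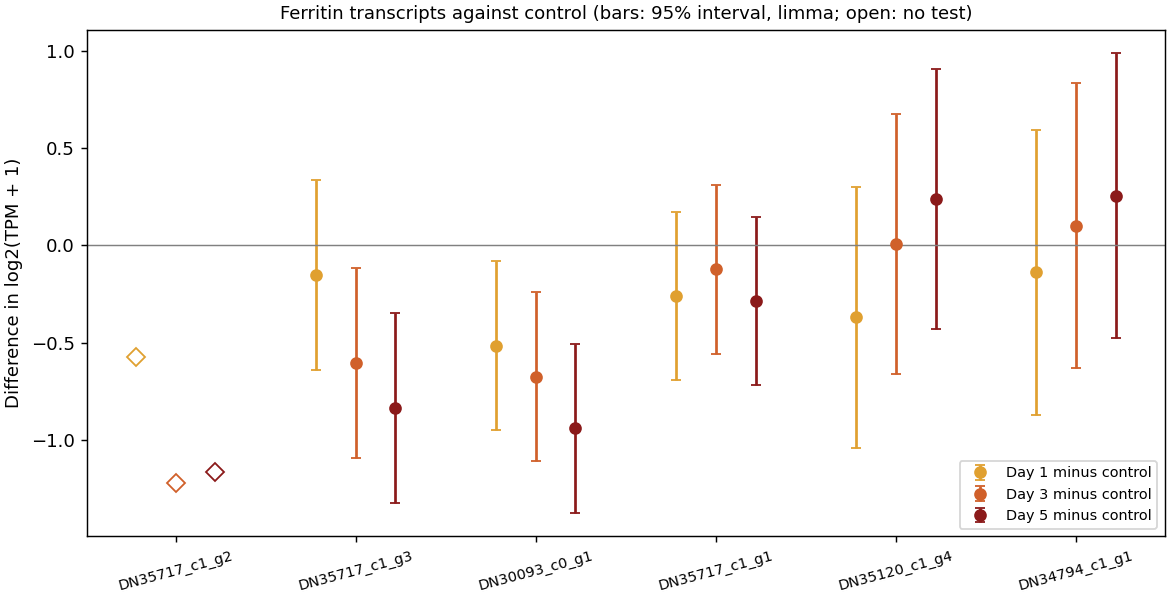
Difference from control in log2(TPM + 1) for the 6 ferritin genes at day 1, day 3 and day 5; filled points have their 95% interval from limma (3 libraries a group), and open diamonds mark DN35717_c1_g2, which was not tested. Intervals of DN30093_c0_g1 lie below 0 at all 3 times, yet only day 5 passed after adjustment over all genes, and intervals of DN35717_c1_g1, DN35120_c1_g4 and DN34794_c1_g1 include 0.

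With these different courses, the order of the genes by mean level was not the same in exposed and control worms. At day 5, DN35120_c1_g4 had the highest mean at 60.6 ± 12.5 TPM, followed by DN30093_c0_g1 at 54.6 ± 8.62, DN35717_c1_g1 at 40.6 ± 5.06, DN35717_c1_g2 at 40.1 ± 6.41, DN35717_c1_g3 at 36.2 ± 4.54 and DN34794_c1_g1 at 6.11 ± 1.20 TPM. In control the order was DN30093_c0_g1 at 106 ± 21.4, DN35717_c1_g2 at 90.7 ± 10.3, DN35717_c1_g3 at 65.5 ± 9.58, DN35120_c1_g4 at 53.2 ± 20.9, DN35717_c1_g1 at 49.6 ± 5.99 and DN34794_c1_g1 at 5.28 ± 2.64 TPM (SD, n = 3 each). Apart from DN34794_c1_g1, which lay below all others in every library, neighbours in either order overlapped between libraries, with 2 exceptions. At day 5, DN30093_c0_g1 lay above DN35717_c1_g1 without overlap, and in control DN35717_c1_g2 lay above DN35717_c1_g3 without overlap.

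The summed TPM of the 6 genes was 282 ± 51.0 at day 1, 251 ± 40.2 at day 3 and 238 ± 31.1 at day 5, against 370 ± 32.6 in control (SD, n = 3 each). The day 5 sum was 64.3% of control, and 70.8% without DN35717_c1_g2. The heavy chain transcript made up 21.7 ± 2.81% of the sum at day 1, 15.4 ± 1.68% at day 3 and 16.9 ± 2.12% at day 5, against 24.5 ± 1.11% in control. DN35120_c1_g4 made up 25.4 ± 3.42% at day 5, against 14.4 ± 5.37% in control. No test was made of these sums.

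The 5 other rows that name ferritin had means under 5 TPM; all 5 passed the filter on low values, and their values over all libraries ran from 0.21 to 8.39 TPM. Just under the minimum was DN32944_c0_g2, whose Swiss-Prot hit is human ferritin heavy chain, with a mean of 4.29 TPM over the 12 libraries. It averaged 3.05 ± 0.632 TPM at day 5 and 6.19 ± 1.98 TPM in control (SD, n = 3 each; limma adjusted p = 0.105). The means of DN31026_c0_g2, DN25769_c0_g1 and DN32332_c0_g2 were 4.38, 2.48 and 1.80 TPM at day 5. In control they were 4.07, 1.88 and 1.31 TPM, in the same order. Of these, only DN32332_c0_g2 lay above control without overlap at day 5, and limma adjusted p was 0.974, 0.748 and 0.685. DN31026_c0_g2, whose Swiss-Prot hit is human ferritin light chain, shares the identifier DN31026_c0 with DN31026_c0_g3. The Swiss-Prot hit of DN31026_c0_g3 is the ferritin light chain of cattle, but its best protein hit is a cattle histone RNA hairpin-binding protein. Its libraries had 3.05, 2.32 and 2.42 TPM in control and 2.23, 2.01 and 2.93 TPM at day 1. They had 0.81, 0.49 and 0.29 TPM at day 3, and 0.21, 0.38 and 0.40 TPM at day 5. All day 3 and day 5 libraries lay under 1 TPM and all control and day 1 libraries above 2 TPM, so that it passed the filter only through control and day 1.

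Because of that, the course of DN31026_c0_g3 is given by these values alone, with no test. Of 50 tested genes with a best hit in a bovid, leaving out ferritins, 15 fell and none rose at day 5, where 2.23% of all tested genes fell; their median difference was -1.10, beside -0.09 over all tested genes. At day 3, 3 of the 50 fell and none rose, where 1.19% of all tested genes fell, and the medians were -0.97 and -0.06. At day 1 none of the 50 passed in either direction, and the medians were -0.005 and -0.08. Their summed TPM was 9688 to 26335 at day 5, against 15091 to 37840 in control, with overlap. Rows matched by names of vertebrate blood proteins summed to 17.1 to 23.9 TPM at day 5, against 31.1 to 57.6 TPM in control, without overlap. Of their 10 tested genes, 1 fell and none rose at day 5. All 10 differences were below 0, beside 58.2% of all tested genes. Only 1 of the 10 had a mean of at least 5 TPM. A best hit does not give the source of the RNA, and the part of bovid RNA in the values of DN31026_c0_g3 was not tested.

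Over the 12 libraries, a pair of ferritin genes with no assembly cluster in common varied together. DN35120_c1_g4 and DN34794_c1_g1 had a Pearson r of 0.95 over the 12 libraries on log2(TPM + 1), and 0.96 after the group means were taken out. Their ratio lay between 7.51 and 12.2 in all libraries, although DN35120_c1_g4 itself ran from 25.1 to 74.8 TPM. DN35717_c1_g2 and DN35717_c1_g3, which may share reads, had r of 0.91, and 0.93 within groups. DN35717_c1_g2 and DN30093_c0_g1 had r of 0.80 over all libraries but 0.28 within groups. Libraries share their scaling and their make-up, so these values are descriptions only.

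**Figure D4:**
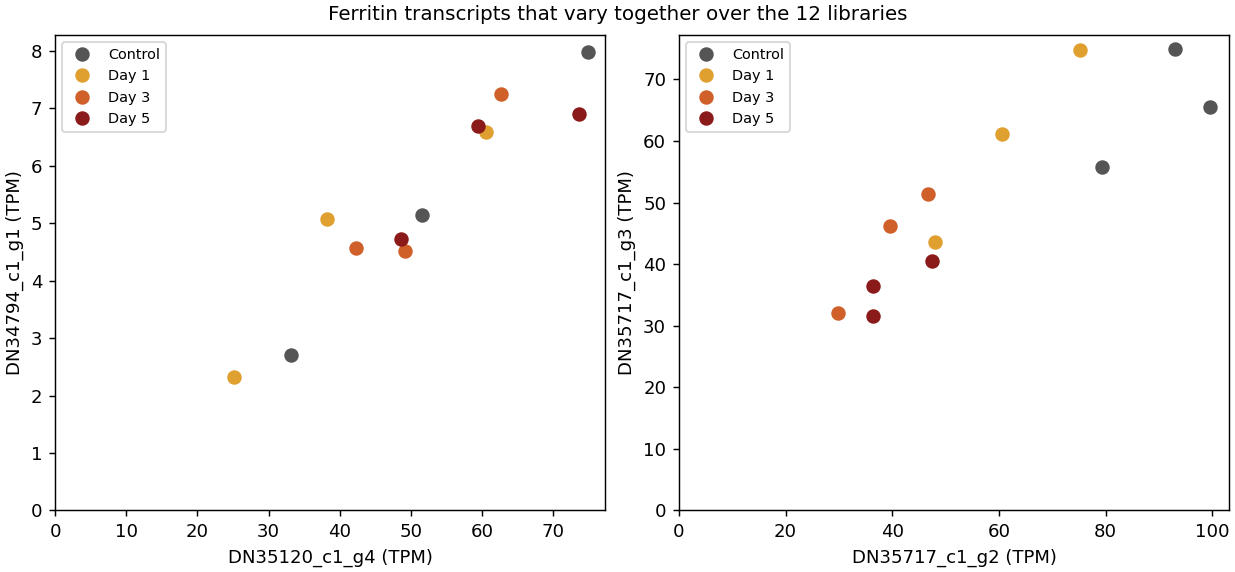
TPM of DN34794_c1_g1 against DN35120_c1_g4 (left) and of DN35717_c1_g3 against DN35717_c1_g2 (right), 1 point a library, coloured by group. On the left the groups are mixed along 1 line (r = 0.95), and on the right the 3 control libraries lie at the high end of DN35717_c1_g2 (r = 0.91).

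Among 4646 tested genes with a mean of at least 5 TPM and a named protein hit, the 6 whose log2(TPM + 1) followed DN35717_c1_g2 most closely over the 12 libraries were taken as the most alike. They had r of 0.95 to 0.97, where the median gene had 0.28 and the 95th percentile was 0.85. The closest was DN37393_c1_g2 (r = 0.97), a subunit of the ubiquinol cytochrome c reductase complex of the mitochondrial respiratory chain, with means of 36.7 TPM in control, 30.7 TPM at day 1, 23.8 TPM at day 3 and 25.4 TPM at day 5. There were 2 proteins of the ribosome. S24 of the small subunit (DN39594_c15_g4, r = 0.96) averaged 198 TPM at day 3 and 356 TPM in control, and L36A of the large subunit (DN40031_c0_g1, r = 0.95) averaged 820 TPM at day 3 and 1477 TPM in control. All 3 had their highest mean in control and their lowest at day 3, as DN35717_c1_g2 had. Genes chosen by r over the same libraries are likely to share its course, so this likeness is no separate result.

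The other 3 were a dihydroxyacetone phosphate acyltransferase (DN35566_c0_g1, r = 0.95), which starts ether lipid synthesis, the mitochondrial phenylalanine tRNA ligase (DN35984_c3_g3, r = 0.95), and a small subunit of ribonucleotide reductase (DN33815_c0_g1, r = 0.95), the enzyme that makes DNA precursors and that itself holds iron. The reductase subunit averaged 24.0 TPM in control, 12.2 TPM at day 1, 7.06 TPM at day 3 and 6.09 TPM at day 5. By Spearman's rank correlation only 2 of the 6 were among the first 6, and leaving out day 3 replicate 2 kept 1 of them and control replicate 1 kept 2. DN35717_c1_g3 stood at rank 52 and DN30093_c0_g1 at rank 445 of the 4646.

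Genes of iron handling outside the ferritins were counted from lists of annotation words, with 104 rows matched and 100 tested. In the uptake and membrane transport list, none of 13 tested genes passed at any time; limma called 0.132% of all tested genes at day 1, 1.62% at day 3 and 2.91% at day 5, in either direction. Its median difference was -0.06, -0.21 and -0.17 at day 1, day 3 and day 5, beside -0.08, -0.06 and -0.09 over all tested genes. Its 2 most abundant members were cytochrome b561 (DN36909_c3_g1), of a family of membrane reductases, with 39.7 ± 2.29 TPM at day 5 and 37.8 ± 4.38 in control, and a ferric-chelate reductase (DN30729_c0_g1), with 13.9 ± 1.19 TPM at day 5 and 12.4 ± 2.90 in control (SD, n = 3 each).

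The 6 tested rows for iron transporters, named here for their role after their values were seen, did not pass and did not share a direction. Of 2 rows for the iron exporter of the ferroportin family (slc40a-1), DN36338_c0_g1 had 7.82, 8.60 and 5.58 TPM at day 5, against 14.7, 17.1 and 7.70 TPM in control, with overlap (difference -0.72; limma adjusted p = 0.163). The other, DN34252_c0_g1, had 1.60, 1.62 and 2.57 TPM at day 5, against 1.44, 1.47 and 0.77 TPM in control, without overlap (0.40; 0.523). The abundant row thus had the lower mean at day 5 and the scarce row the higher.

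Mitoferrins carry iron into mitochondria. Of their 2 rows, slc25a-8 (DN36067_c0_g1) had 4.57, 5.46 and 4.99 TPM at day 5, against 11.8, 8.47 and 7.92 TPM in control, without overlap (-0.78; limma adjusted p = 0.0625), and slc25a-2 (DN34836_c3_g1) averaged 8.14 ± 1.83 TPM at day 5 and 13.2 ± 2.47 in control (SD, n = 3 each; -0.64; 0.151). Among importers, that of the divalent metal transporter family (slc11a-1, DN31837_c6_g1) had 10.4, 8.85 and 11.2 TPM at day 5, against 9.31, 9.84 and 4.77 TPM in control (0.36; 0.541). The row with a ZIP14 hit (DN36912_c4_g4), a zinc transporter that in mammals also takes up iron, had 2.43, 1.89 and 2.68 TPM at day 5, against 4.56, 3.59 and 2.95 TPM in control, without overlap (-0.49; 0.390).

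The iron sensing list held 2 tested genes and neither passed. Both were poly(rC)-binding proteins, of a family that in mammals hands iron to ferritin. The more abundant, DN35986_c2_g2, had 10.3 ± 0.076 TPM at day 5 and 9.15 ± 1.45 in control (SD, n = 3 each). The list's other row, a cytoplasmic aconitate hydratase, did not pass the filter on low values, so only that family was tested. In the heme list, none of 14 tested genes passed, and the medians were -0.09, -0.18 and -0.24 at the 3 times. Its most abundant members were a heme-binding protein 2-like gene (DN31600_c0_g1), with 917 ± 114 TPM at day 5 and 832 ± 309 in control, and porphobilinogen deaminase of heme synthesis (DN37862_c1_g1), with 53.0 ± 16.0 TPM at day 5 and 51.9 ± 20.2 in control (SD, n = 3 each).

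In the list for the assembly of iron-sulfur clusters, the cofactors built from iron in mitochondria and cytosol, 4 of 25 tested genes fell at day 5 (2.23% of all tested genes fell), 1 fell at day 3 (1.19% of all) and none rose. The list's median was -0.15, -0.34 and -0.32 at day 1, day 3 and day 5, and it stayed below 0 under the 4 other scalings tried. Most of the calls named below were lost under those scalings. At day 5, 20 of 25 members were below 0, beside 58.2% of all tested genes. Of the 25, 5 had their best hit in a flatworm. The scaffold protein ISCU (DN31036_c0_g1) had 12.1, 15.8 and 14.4 TPM at day 5, against 27.3, 30.5 and 19.3 TPM in control, without overlap (-0.80 ± 0.20 SE; limma adjusted p = 0.0429). The carrier ISCA1 (DN39308_c1_g1) had 14.9, 11.7 and 13.7 TPM at day 3, against 24.8, 28.0 and 21.6 TPM in control (-0.84 ± 0.18 SE; 0.0309), and it averaged 14.7 TPM at day 5 (-0.71; 0.0499).

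The other 2 that fell at day 5, named after their values were seen, were NUBP2, a cytosolic assembly factor (DN33807_c1_g1), with 4.56 ± 0.235 TPM at day 5 and 8.37 ± 0.541 in control (limma adjusted p = 0.0458), and the cysteine desulfurase that supplies the sulfur (DN35186_c1_g1), with 2.64 ± 0.720 TPM at day 5 and 6.39 ± 1.93 in control (0.0498; SD, n = 3 each). These calls lay near the threshold. Of 23 alternatives, ISCU held in 6, NUBP2 in 3, the desulfurase in 6, and ISCA1 in 8 at day 3 and 3 at day 5, and the highest adjusted p among them was 0.205. The day 5 calls of NUBP2, the desulfurase and ISCA1 were lost whichever library was left out, except day 3 replicate 2. ISCU was lost likewise, except without day 3 replicate 2 or control replicate 3, and ISCA1 at day 3 was lost without any control or day 3 library and without day 5 replicate 2 or 3. Under every other scaling tried, the calls of ISCU and NUBP2 at day 5 and of ISCA1 at day 3 and day 5 were lost. Among these scalings, the desulfurase call was lost only without the 2 most abundant transcripts. All of these differences kept their sign. Frataxin, the mitochondrial iron-binding protein of the same list (DN34156_c3_g2), averaged 23.0 ± 2.56 TPM at day 5 and 23.0 ± 4.56 in control.

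**Figure D5:**
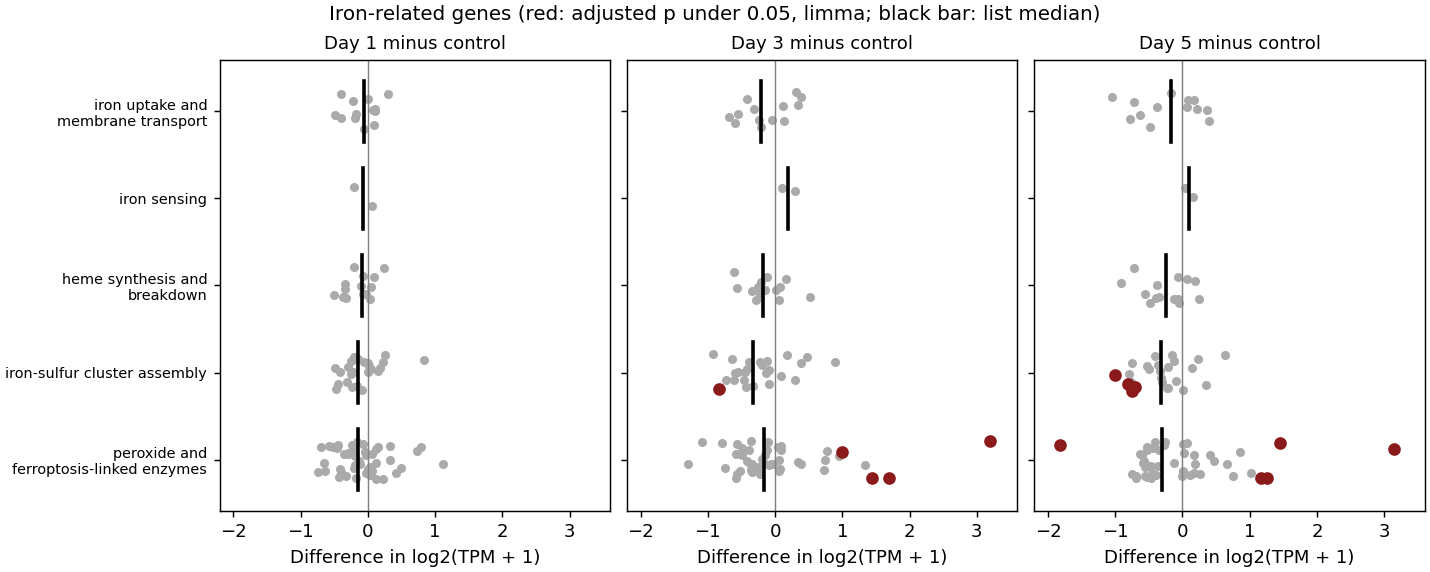
Differences from control in log2(TPM + 1) at day 1, day 3 and day 5 for the 100 tested genes of 5 lists of iron-related genes; each point is a gene, red points have a limma adjusted p under 0.05, and black bars are list medians. The iron-sulfur list has 4 red points below 0 at day 5, and the peroxide list has 4 above 0 at both day 3 and day 5.

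The list of peroxide and ferroptosis-linked genes, of which 13 of 46 tested are metallothionein rows, had 4 rises at day 3, where 0.428% of all tested genes rose, and 4 rises and 1 fall at day 5, where 0.681% rose. At day 1 none passed. Of the 46, 12 had their best hit in a flatworm. Its medians were -0.14, -0.16 and -0.31 at the 3 times, with 26 of 46 members below 0 at day 5, beside 58.2% of all tested genes. The rises were 2 catalase and 2 metallothionein-like rows at both times, and the fall was a metallothionein row. Catalase breaks down hydrogen peroxide, and of its 4 tested rows 2 rose, both named after their values were seen. None of the 4 had its best hit in a flatworm. The best hits of the 2 that rose, DN36204_c0_g1 and DN32940_c1_g1, were in a rotifer and a tick. A best hit does not give the source of the RNA, which was not tested. DN36204_c0_g1 had 26.3, 25.6 and 21.1 TPM in control, 35.6, 51.8 and 36.7 TPM at day 1, 52.8, 60.5 and 37.0 TPM at day 3, and 55.4, 57.0 and 54.1 TPM at day 5. All exposed libraries lay above all control libraries, in the opposite direction to DN35717_c1_g2 in the same libraries.

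For that catalase the difference was 1.16 ± 0.21 (SE) at day 5 (limma adjusted p = 0.00761, called in 23 of 23 alternatives) and 0.99 at day 3 (0.0258, called in 15 of 23). The day 3 call did not hold without control replicate 1, 2 or 3 (0.0644, 0.0507 and 0.0972) or without day 3 replicate 1 or 2 (0.0869 and 0.0744). The second catalase row (DN32940_c1_g1) averaged 49.0 ± 3.41 TPM at day 5 and 20.8 ± 8.01 in control (SD, n = 3 each; 1.26; 0.0438), and that call held in 12 of 23. It was lost without control replicate 1 or 3, day 1 replicate 1 or 3, day 3 replicate 1, or any day 5 library, with adjusted p up to 0.149 over all alternatives. The other 2 catalase rows were scarce and not called. DN35639_c0_g1 averaged 2.39 ± 0.635 TPM at day 5 and 1.01 ± 0.280 in control (0.75; limma adjusted p = 0.172), and DN30522_c1_g1 averaged 0.46 ± 0.131 TPM at day 5 and 1.21 ± 0.373 in control (-0.59; 0.453; SD, n = 3 each).

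The largest rise with a mean of at least 5 TPM was in DN23386_c0_g2, whose Swiss-Prot hit is a metallothionein-like protein of papaya; metallothioneins are small metal-binding proteins. It had 9.06, 12.0 and 13.6 TPM at day 3 and 11.5, 9.68 and 11.7 TPM at day 5, against 0.36, 0.18 and 0.54 TPM in control. All control and day 1 libraries lay under 1 TPM, so it passed the filter and the minimum for naming only through day 3 and day 5, and its values are given with no test although the count of rises includes it. A second row with a papaya metallothionein hit (DN23911_c0_g1), named after its values were seen, averaged 14.2 ± 2.74 TPM at day 3 and 11.8 ± 1.51 at day 5, against 3.71 ± 0.931 in control (SD, n = 3 each; differences 1.69 and 1.45; limma adjusted p = 0.00167 and 0.00362). DN23911_c0_g1 was called in 23 of 23 alternatives at both times. The gene that fell at day 5 had the pig metallothionein-1E as its Swiss-Prot hit (DN30189_c0_g2), with 0.43, 0 and 1.04 TPM at day 5 against 7.59, 2.56 and 3.15 TPM in control (-1.81; limma adjusted p = 0.0165). That call was lost without control replicate 1 (0.0932), day 5 replicate 1 (0.0619) or day 5 replicate 2 (0.0740).

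Other properties of the libraries moved with exposure, and their part in the ferritin values was not tested. Gut marker genes, matched by annotation words, summed to 6252 to 7529 TPM at day 5 against 3266 to 5316 TPM in control, with 7 of 123 tested genes rising and 1 falling, where 0.681% of all tested genes rose and 2.23% fell. Markers of neoblasts, the planarian stem cells, summed to 537 to 586 TPM at day 5 against 789 to 1055 TPM in control, with 6 of 31 falling and none rising, beside the same 2.23% and 0.681%. Both sums overlapped control at day 1 and day 3. Only 18 of the 123 gut rows had their best hit in a flatworm, against 25 of the 31 neoblast rows, so the gut words may match other organisms. The transcript DN36963_c0_g5 took 21.1 ± 3.59% of all TPM at day 5 and 6.58 ± 4.90% in control (SD, n = 3 each). The other of the 2 most abundant transcripts, DN37864_c2_g1, went the other way, with 30.5 ± 1.88% at day 5 and 38.5 ± 7.31% in control. TPM values of all genes add up to a fixed total. Rescaling to the RNA outside the 2 most abundant transcripts left DN35717_c1_g2 below control at all 3 times, and over all alternatives its differences ran from -0.73 to -0.41 at day 1, -1.37 to -1.05 at day 3 and -1.29 to -0.97 at day 5.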

How the data were processed

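Polyadenylated RNA of whole worms was measured in 12 libraries, grouped and numbered by their labels. The submitters' processing notes name Salmon, cutadapt, FastQC and edgeR; no source used here gives versions or assembly settings. The deposited values were taken as TPM: the header names no unit, and each library sums to 978610 to 986584. TPM keeps no depth, so depth is unknown and no counting interval is given.

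Of 30535 genes, the 27329 that reached 1 TPM in 3 or more libraries were kept. Their log2(TPM + 1) values were fitted in R 4.3.3 by limma 3.58.1 using its intensity trend. The 4 groups and 12 libraries entered 1 model. Benjamini-Hochberg adjustment ran over all genes kept, and calls needed an adjusted p under 0.05. Tables and plots were made with Python 3.11.15, pandas 2.3.3, numpy 2.4.6 and matplotlib 3.10.9. The table has 0 per-sample columns beyond the 12 libraries.

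The members, the gene lists and the tests were chosen with earlier results of these data known. Lists are words searched in the protein hit and Swiss-Prot name; 2 patterns were tightened after values were seen, because they matched species names or unrelated enzymes. Genes were named by rule. These were the ferritin rows with a mean of 5 TPM or more and the 6 genes most correlated with the heavy chain transcript. For each iron-related list, they were the strongest called riser and faller with a mean of 5 TPM or more. Failing these, they were the 2 most abundant. Other named genes were chosen after their values were seen. Most are marked so where they are named, but frataxin, DN30189_c0_g2, DN35639_c0_g1, DN30522_c1_g1 and the ferritin rows with means under 5 TPM are not. Alternatives were another scaling (median-ratio, quantile, flatworm-hit genes, or without the 2 most abundant transcripts), pseudocount 0.1, other filters, no trend, only the 6 libraries compared, a replicate block and leaving out each library; leaving out both libraries with the highest median TPM was added after seeing the data.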

Additional observations from a re-analysis of the deposited data

How the results depend on the processing

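The heavy chain transcript DN35717_c1_g2 kept its direction under the 18 alternatives run for it and moved by less than its SD pooled over the 4 groups (0.26 on the log2 scale). Among the 5 other ferritin genes, none was called at day 1 or day 3 under any alternative. At day 5, 1 was called, 2 with the 5 TPM filter, and 0 without the intensity trend, with only the 6 libraries compared, or after rescaling without the 2 most abundant transcripts; leaving out a library gave 0 to 1, and 0 without control replicate 1, day 5 replicate 1 or day 5 replicate 3.

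Some uncalled ferritin differences changed sign between alternatives. Leaving out a library gave -0.33 to 0.056 for DN35717_c1_g3 at day 1, -0.47 to 0.20 for DN34794_c1_g1 at day 1 and -0.23 to 0.41 at day 3, and -0.079 to 0.56 at day 5. It gave -0.29 to 0.29 for DN35120_c1_g4 at day 3 and -0.055 to 0.52 at day 5, and -0.28 to 0.024 for DN35717_c1_g1 at day 3. DN35717_c1_g1 at day 3 was also 0.023 after quantile normalization, 0.045 when scaled to flatworm-hit genes and 0.033 without the 2 most abundant transcripts. Without both libraries of highest median TPM (control replicate 1 and day 3 replicate 2), DN35120_c1_g4 was -0.27 at day 3 and -0.055 at day 5, and DN34794_c1_g1 -0.13 and -0.079.

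Genes called in all, and iron-list genes called, moved more. At day 1 (36 genes; 0 in the lists) the counts were 82 and 1 with median-ratio scaling, 74 and 1 with quantile normalization, 72 genes when scaled to flatworm-hit genes, 23 with the 5 TPM filter and 15 with only 6 libraries; leaving out a library gave 15 (day 1 replicate 2) to 92 (control replicate 2), and 0 in the lists. At day 3 (442; 5) they were 718 genes with median-ratio scaling, 869 with quantile normalization, 669 with flatworm-hit genes, 266 and 2 without the trend, 163 and 2 with only 6 libraries, and 161 and 2 without both libraries of highest median; leaving out a library gave 187 (control replicate 1) to 428, and 2 to 5 in the lists. At day 5 (795; 9) they were 1229 genes with median-ratio scaling, 1425 with quantile normalization, 501 and 5 without the trend, 481 and 3 with only 6 libraries, and 488 and 3 without both libraries of highest median; leaving out a library gave 275 (day 5 replicate 1) to 1145 (day 3 replicate 2), and 3 to 12 in the lists. The cause was not tested. The share of called genes that were higher than control was 63.9%, 26.5% and 23.4% at day 1, day 3 and day 5, and 72.0%, 45.5% and 44.9% with median-ratio scaling. Of the 6 genes most like DN35717_c1_g2, 2 remained by Spearman's correlation and 1 to 5 when a library was left out.

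Libraries of the same replicate number showed little likeness: deviations from group means correlated at -0.148 to 0.15 over 18 same-number pairs. Whether equal numbers share a culture or batch is not stated, and low correlations cannot exclude it. With a replicate block, 23, 438 and 780 genes were called at day 1, day 3 and day 5, with 0, 5 and 7 in the lists; the call of DN30093_c0_g1 at day 5 held.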
